A study of Mus musculus with 12 samples.

Results

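Subcutaneous colorectal tumours of mice that lived under chronic stress and received the high dose of Xiao-chai-hu decoction (XCHT-H) were compared with tumours of mice under chronic stress alone (Stress). The comparison was defined by the sample labels and took 3 XCHT-H and 3 Stress libraries, 6 of the 12 libraries of the study. The other 6 were 3 libraries from a low-dose group (XCHT-L), which had chronic stress and a smaller dose of the decoction, and 3 from a group with tumours and neither stress nor decoction (Ctrl). All 4 groups carried the same kind of tumour, and the XCHT-H, XCHT-L and Stress groups shared the chronic stress. The kind and length of the stress, the doses in numbers, the tumour cell line, and the strain and age of the mice are not given in the sources used here. Whether the replicates of a group were separate animals is not stated in the labels, so the p-values measure the spread between these libraries, which may be partly technical.

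Xiao-chai-hu decoction is a preparation of traditional Chinese medicine that is boiled from several herbs, among them Bupleurum and Scutellaria root, Pinellia, ginseng, liquorice, ginger and jujube. Chronic stress raises adrenal glucocorticoids and catecholamines, and the glucocorticoid receptor switches on genes such as Sgk1, Fkbp5, Tsc22d3 and the clock gene Per1. Cells take up iron through the transferrin receptor, encoded by Tfrc, whose messenger RNA is stabilised by the iron regulatory proteins when iron is scarce. Heme oxygenase 1, encoded by Hmox1, breaks down heme and releases its iron, and ferroportin, encoded by Slc40a1, carries iron out of the cell.

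Total counts ran from 17092936 to 17501285 in the XCHT-H libraries and from 16813536 to 17477347 in the Stress libraries, and 15476 to 15775 genes had a count above 0. Levels are given as CPM, the count of a gene relative to its library's total, scaled between libraries with the trimmed mean of M-values (TMM). Markers of colorectal epithelium were scarce in this tissue. Of the 16 genes of that list present in the tables, 12 stayed below 1 in all 6 libraries in FPKM, the deposited unit that is scaled for gene length and library size, among them Krt8, Krt18, Epcam, Vil1, Cdx1 and Cdh17, and Krt18 was at 0 in all 6. The 4 exceptions were Sox9, at 26.1 to 39.1 FPKM, Lgals4, at 5.46 to 12.97 FPKM, Ceacam1, at 3.27 to 6.21 FPKM, and Car2, at 0.48 to 2.13 FPKM. Vimentin, a filament protein of mesenchymal cells, was at 1932 to 2213 FPKM. The tumour cell line is not given, so these levels do not settle whether the label of a colorectal tumour holds.

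Blood and muscle transcripts were uneven among the libraries. The 4 adult globin genes together reached 283, 47.4 and 8.13 CPM in the XCHT-H libraries, against 45.7, 16.9 and 23.6 CPM in the Stress libraries, so XCHT-H replicate 1 was the highest and XCHT-H replicate 3 the lowest of the 6. The 26 genes of the skeletal muscle list summed to 10.3, 649 and 30.3 CPM in the XCHT-H libraries, against 66.6, 8.92 and 8.65 CPM in the Stress libraries, and XCHT-H replicate 2 stood apart. In bulk tissue, fewer cells of a type and less RNA per cell cannot be told apart. Across 11758 genes, each library's departure from the average of all libraries was correlated with transcript length, at -0.00139, -0.0275 and 0.282 in the XCHT-H libraries, against 0.0933, 0.137 and 0.0649 in the Stress libraries; genes are not independent replicates.

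**Figure D1:**
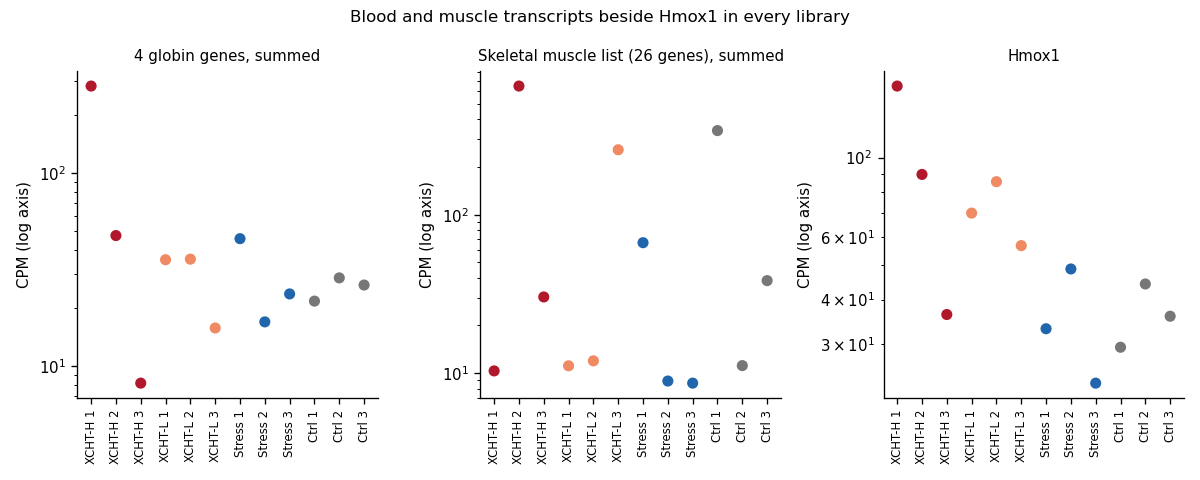
Summed CPM of 4 globin genes (left), of 26 skeletal muscle genes (middle) and CPM of Hmox1 (right) in each of the 12 libraries, on log axes; each point is 1 library. XCHT-H replicate 1 had 283 CPM of globins and the highest Hmox1, and XCHT-H replicate 2 had 649 CPM of muscle transcripts.

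The comparison asked what the decoction at its higher dose did to gene expression in tumours of stressed mice. Well-expressed genes described below include Tfrc, which was lower in XCHT-H tumours, and Hmox1, which was higher in the XCHT-H mean. Others are the clock genes Cry1 and Per1, the retinoic acid hydroxylase gene Cyp26b1 and the heparan sulfatase gene Sulf2. These genes are not ranked by the size of their change. No gene passed edgeR's quasi-likelihood test: of 13453 genes tested, 0 (0%) had a Benjamini-Hochberg adjusted p under 0.05, and the smallest adjusted p was 0.9998. At an unadjusted p under 0.05 stood 191 genes (1.42%), where 673 would be found by chance alone. They comprised 111 with a higher mean in XCHT-H (0.825%) and 80 with a lower mean (0.595%). DESeq2 and limma-voom with quality weights also called 0 genes, with 217 and 366 genes at an unadjusted p under 0.05, and the smallest adjusted p of DESeq2 was 0.0830, for Tfrc. The values below are therefore descriptions of genes that did not pass.

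The spread within the groups was as wide as the distance between them. The root mean square difference in log2 CPM averaged 0.501 over the 9 pairs of an XCHT-H and a Stress library, 0.551 over the 3 pairs within XCHT-H and 0.521 over the 3 pairs within Stress. The groups did not overlap for 774 genes (5.75%), of which 327 were higher (2.43%) and 447 lower (3.32%) in XCHT-H. With 3 libraries per group in random order, a larger share of genes than 5.75% would separate, so a lack of overlap does not by itself mark a difference. Across all genes tested the median log2 fold change, XCHT-H minus Stress, was -0.00378, the share above 0 was 48.9%, and the median standard error (SE) was 0.164. For 204 genes the log2 fold change was 1 or more in either direction. On simulated counts the test called 35.8% of genes altered 1.5-fold, 64.2% of those altered 2-fold and 86.4% of those altered 4-fold. The altered genes were drawn only from genes above a minimum mean count, and each gene was simulated independently of the others. Whether these shares hold for the measured libraries, with their uneven blood and muscle transcripts, was not tested.

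**Figure D2:**
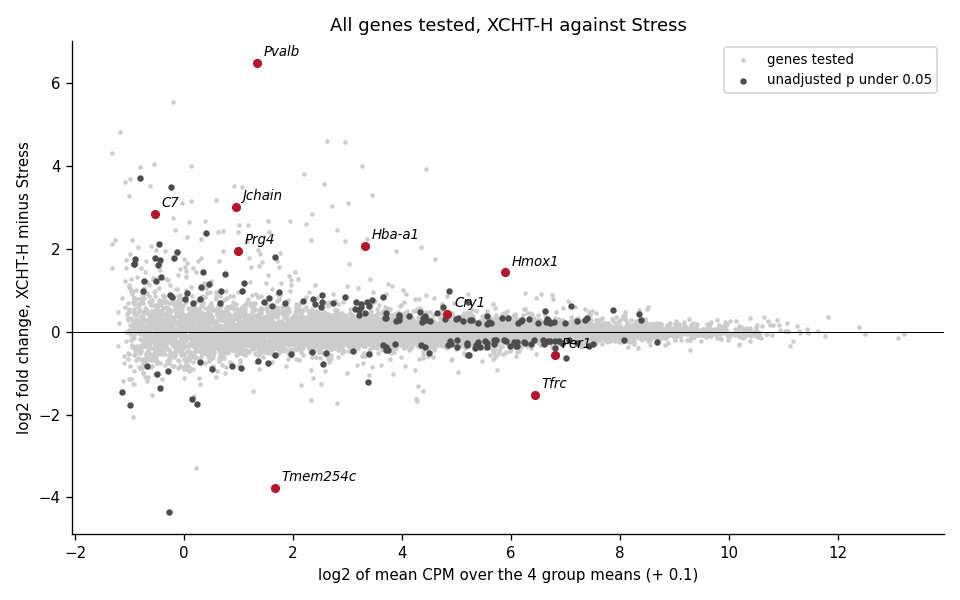
Log2 fold change, XCHT-H minus Stress, of each of the 13453 genes tested against the log2 of its mean CPM; dark points are the 191 genes with an unadjusted p under 0.05, and red points are named genes. Most genes lie close to 0, the widest values belong to genes of low level, and none passed at an adjusted p under 0.05.

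Genes of iron uptake and heme breakdown had wide values in opposite directions. Tfrc (Entrez ID 22042, chromosome 16, 32608896 to 32632794 of GRCm38.p6) stood at 52.7, 46.4 and 67.04 CPM in XCHT-H tumours, against 106, 120.1 and 254 CPM in Stress tumours. All 3 XCHT-H libraries lay below all 3 Stress libraries, and Stress replicate 3 was the highest of the 6. The means were 55.4 ± 10.6 CPM in XCHT-H and 159.95 ± 81.3 CPM in Stress tumours (SD, n = 3 each), and the log2 fold change was -1.53 (SE 0.38). Its adjusted p was 0.9998 in edgeR and 0.0830 in DESeq2. Leaving out Stress replicate 3 gave -1.02, and leaving out Stress replicate 1 gave -1.75. The XCHT-L libraries, at 49.2, 40.9 and 87.96 CPM, and the Ctrl libraries, at 74.2, 84.6 and 51.9 CPM, also lay below the Stress libraries. Stress minus Ctrl was 1.19 (SE 0.37) and XCHT-L minus Stress -1.43 (SE 0.37); these differences use the same 3 Stress libraries and are not independent of the first.

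Hmox1 (Entrez ID 15368, chromosome 8, 75093618 to 75100593) stood at 159, 89.7 and 36.3 CPM in XCHT-H tumours, against 33.1, 48.7 and 23.3 CPM in Stress tumours. The groups overlapped, because XCHT-H replicate 3 lay below Stress replicate 2. XCHT-H tumours averaged 94.9 ± 61.4 CPM and Stress tumours 35.1 ± 12.8 CPM (SD, n = 3 each). The log2 fold change of 1.44 (SE 0.45) was 0.85 without XCHT-H replicate 1 and 1.82 without XCHT-H replicate 3. The order of the 3 XCHT-H libraries in Hmox1 was that of their globin sums, and the part of blood in the Hmox1 difference was not tested. The XCHT-L libraries, whose globin sums of 35.5, 35.8 and 15.7 CPM lay within the range of the Stress libraries or just below it, had 69.9, 85.6 and 56.7 CPM of Hmox1, and the Ctrl libraries had 29.4, 44.2 and 35.9 CPM.

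Of the 17 members of the iron and ferroptosis list, all of which were tested, 10 were higher and 7 lower in XCHT-H, 0 passed, and the median log2 fold change was 0.063, or -0.022 without XCHT-H replicate 2. Tfrc was the list's 1 member whose groups did not overlap. Over all genes tested, 3.32% were lower in XCHT-H without overlap. Slc40a1 had 6.17, 0.706 and 0.697 CPM in XCHT-H tumours, against 0.816, 0.350 and 1.03 CPM in Stress tumours, so its log2 fold change of 1.78 (SE 0.85) rested on XCHT-H replicate 1 and was -0.064 without it. Ireb2, which encodes one of the iron regulatory proteins, had 114, 101 and 127 CPM in XCHT-H tumours, against 132, 123 and 130.03 CPM under stress alone, a log2 fold change of -0.17 (SE 0.12), or -0.093 without XCHT-H replicate 2. The anchors of ferroptosis, a form of cell death by lipid peroxidation, were close to 0. Slc7a11, the cystine importer, was at -0.12 (SE 0.21), and Gpx4, the enzyme that reduces lipid peroxides, at 0.063 (SE 0.20); leaving out 1 library turned the sign of each.

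Targets of Nrf2, the transcription factor of the antioxidant response to which Hmox1 also belongs, had small positive values. Of 19 tested members, 15 were higher and 4 lower in XCHT-H with a median of 0.18, and the median ran from 0.10 without XCHT-H replicate 2 to 0.26. Gclm, a subunit of the enzyme that starts glutathione synthesis, stood at 34.2, 49.3 and 26.5 CPM in XCHT-H tumours, against 26.4, 27.8 and 30.6 CPM in Stress tumours. XCHT-H replicate 2 was highest and XCHT-H replicate 3 lay within the Stress range, and the log2 fold change was 0.37 (SE 0.18), or 0.10 without XCHT-H replicate 2. Osgin1, an oxidative stress-induced growth inhibitor, was the member without overlap, where 2.43% of all genes tested were higher without overlap. It stood at 2.83, 3.59 and 2.38 CPM in XCHT-H tumours against 2.22, 1.98 and 2.18 CPM in Stress tumours. Its log2 fold change was 0.46 (SE 0.26), or 0.29 without XCHT-H replicate 2. Malic enzyme gene Me1 was at 0.37 (SE 0.19), or 0.12 without XCHT-H replicate 2, and sulfiredoxin gene Srxn1 at 0.18 (SE 0.11), or 0.072 without XCHT-H replicate 1. The classic target Nqo1 was lower in the XCHT-H mean, at 10.1, 10.5 and 9.64 CPM in XCHT-H tumours against 9.56, 11.1 and 15.4 CPM in Stress tumours, with overlapping groups and a log2 fold change of -0.25 (SE 0.27), or -0.026 without Stress replicate 3.

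**Figure D3:**
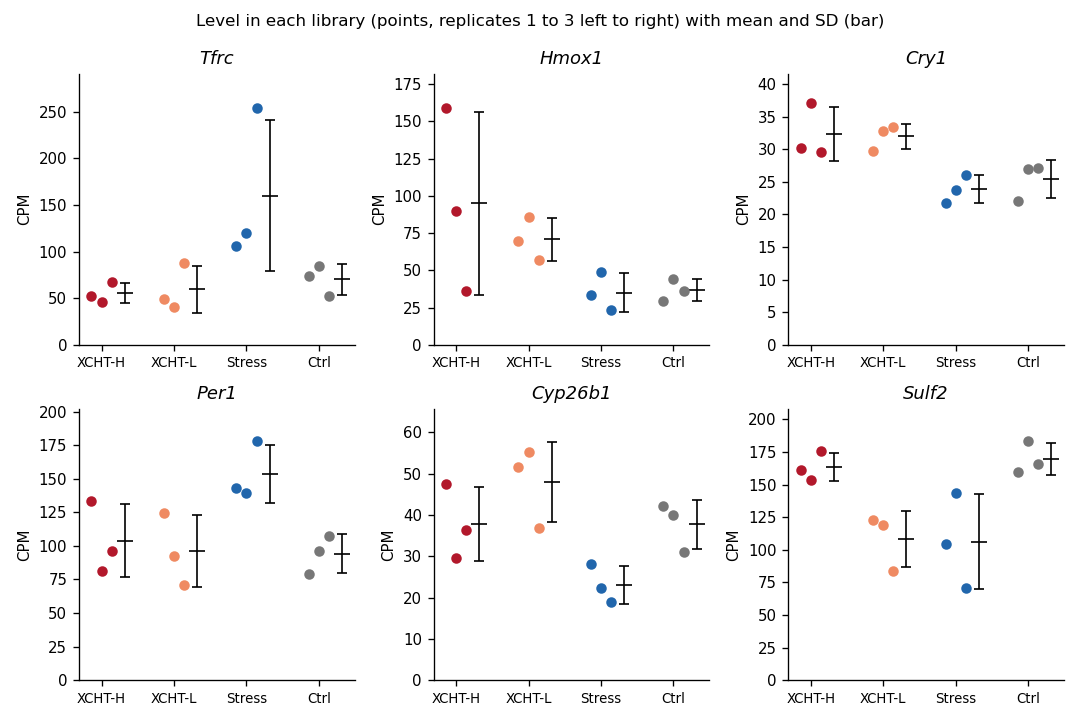
CPM of Tfrc, Hmox1, Cry1, Per1, Cyp26b1 and Sulf2 in each library (points) with the mean and SD of its group of 3 (bars), for XCHT-H, XCHT-L, Stress and Ctrl from left to right; axes start at 0. Tfrc and Per1 are lower, and Cry1, Cyp26b1 and Sulf2 higher, in all 3 XCHT-H than in all 3 Stress libraries, while Hmox1 overlaps.

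Genes of the circadian clock had values in both directions. In the clock, the protein of Arntl activates the Per and Cry genes, whose own proteins then inhibit the activity of that protein. Cry1 (Entrez ID 12952, chromosome 10, 85131700 to 85185054) stood at 30.1, 37.04 and 29.6 CPM in XCHT-H tumours, against 21.8, 23.7 and 26.1 CPM in Stress tumours, without overlap. Its log2 fold change was 0.44 (SE 0.13), and 0.32 to 0.51 with single libraries left out. The XCHT-L libraries had 29.8, 32.7 and 33.4 CPM of Cry1 and the Ctrl libraries 22.02, 27.02 and 27.1 CPM, so both dose groups lay above both groups without decoction.

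Per1 (Entrez ID 18626, chromosome 11, 69095108 to 69109965), a clock repressor that glucocorticoids also induce, stood at 134, 81.1 and 96.5 CPM in XCHT-H tumours, against 143, 139 and 178 CPM in Stress tumours. All XCHT-H libraries lay below all Stress libraries, although XCHT-H replicate 1 came within a few CPM of Stress replicate 2. The log2 fold change was -0.56 (SE 0.22), -0.79 without XCHT-H replicate 1 and -0.42 without XCHT-H replicate 2. The XCHT-L libraries had 124, 92.8 and 71.2 CPM and the Ctrl libraries 78.8, 96.5 and 107 CPM, and Stress minus Ctrl, with the same Stress libraries, was 0.71 (SE 0.22).

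Bhlhe41, a repressor that competes with the clock activators, was without overlap too, at 26.1, 25.8 and 28.2 CPM in XCHT-H tumours, against 16.8, 22.03 and 19.6 CPM in Stress tumours, a log2 fold change of 0.45 (SE 0.18). The activator Arntl was at -0.13 (SE 0.11), or -0.056 without Stress replicate 2. Nr1d1, the nuclear receptor that represses Arntl, had 10.1, 23.4 and 18.2 CPM in XCHT-H tumours, against 18.8, 29.2 and 23.1 CPM in Stress tumours, and its log2 fold change of -0.46 (SE 0.41) was -0.19 without XCHT-H replicate 1. Per2 was at -0.017 (SE 0.22), and Dbp, an output factor of the clock, at -0.23 (SE 0.40). Over the 16 tested clock genes, 4 were higher and 12 lower in XCHT-H, 0 passed and the median was -0.030, or 0.020 without Stress replicate 2. Without overlap, 2 were higher (2.43% of all genes tested) and 1 was lower (3.32%). The hour at which tumours were taken is not given in the sources used here, and its part in the clock genes was not tested.

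Genes induced by glucocorticoids had mostly negative values in XCHT-H tumours. Of the 17 tested members, 14 were lower and 3 higher than under stress alone, 0 passed, and the median log2 fold change was -0.12. The median kept its sign without each of the 6 libraries in turn, from -0.28 to -0.094. Sgk1, a kinase of ion transport, stood at 61.05, 59.7 and 62.3 CPM in XCHT-H tumours, against 62.9, 65.98 and 129 CPM in Stress tumours. The groups did not overlap, but Stress replicate 3 was far above the other two, and the log2 fold change of -0.50 (SE 0.24) was -0.068 without it. Sgk1 in the XCHT-L libraries was 93.2, 80.5 and 59.00 CPM.

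The receptor's standard reporters showed smaller values. Fkbp5, a chaperone that dampens the receptor, was at 263, 235 and 278 CPM in XCHT-H tumours, against 332, 205 and 302 CPM in Stress tumours, with a log2 fold change of -0.11 (SE 0.21). Tsc22d3, which encodes the leucine zipper protein GILZ, was at -0.12 (SE 0.19). For both, the groups overlapped and the sign turned without 1 of the Stress libraries. The transcription factors Bcl6 at -0.26 (SE 0.16), Klf9 at -0.24 (SE 0.16) and Cebpd at -0.40 (SE 0.30) also had overlapping groups. Bcl6 was -0.17 without XCHT-H replicate 3, Klf9 was -0.094 without XCHT-H replicate 2, and Cebpd was -0.19 without Stress replicate 3 and -0.71 without XCHT-H replicate 1. Cebpd showed 14.8, 9.05 and 8.42 CPM in XCHT-H tumours, against 11.02, 13.8 and 17.99 CPM in Stress tumours, and XCHT-H replicate 1 lay among the Stress libraries.

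Beyond these pathways, 15 genes per direction were taken by a rule: the smallest unadjusted p among genes whose groups did not overlap, with a mean of at least 1 FPKM in the higher group. None of them passed. Their 448 values under alternative settings kept their signs, and none passed. Since the rule used this contrast, the absence of overlap, the small p-values and the kept signs are descriptions. Groups that do not overlap stay apart when a library is left out, so those signs could hardly turn.

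Among the genes of higher level in XCHT-H were enzymes of the retinoid, glycan and glycogen pathways. Cyp26b1 (Entrez ID 232174, chromosome 6, 84571414 to 84593908), which degrades retinoic acid, stood at 47.5, 29.7 and 36.3 CPM in XCHT-H tumours, against 28.1, 22.3 and 18.9 CPM in Stress tumours. The lowest XCHT-H library exceeded the highest Stress library by little, and the log2 fold change was 0.71 (SE 0.21). Cyp26b1 had 51.7, 55.3 and 36.9 CPM in XCHT-L and 42.2, 40.04 and 30.99 CPM in Ctrl libraries, so the Stress libraries were the lowest of the 12. The gene was chosen for Stress libraries below the XCHT-H libraries, so low Stress values are partly built in.

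Sulf2 (Entrez ID 72043, chromosome 2, 166073899 to 166155683), an extracellular enzyme that removes sulfates from heparan sulfate, stood at 161, 154 and 175 CPM in XCHT-H tumours, against 105, 143 and 70.6 CPM in Stress tumours. Its log2 fold change was 0.62 (SE 0.21), or 0.41 without Stress replicate 3 and 0.90 without Stress replicate 2. The XCHT-L libraries, at 123, 119 and 83.7 CPM, also lay below the XCHT-H libraries, and XCHT-H minus XCHT-L was 0.59 (SE 0.21), which did not pass. The Ctrl libraries had 159.6, 183 and 166 CPM of Sulf2. St3gal5, which makes the ganglioside GM3, had 10.7, 7.76 and 7.49 CPM in XCHT-H tumours, against 5.19, 7.17 and 5.21 CPM in Stress tumours, a log2 fold change of 0.56 (SE 0.21). Gyg, the glycogenin that primes glycogen synthesis, had narrow ranges, at 51.1, 49.7 and 50.6 CPM in XCHT-H tumours against 40.8, 44.9 and 42.7 CPM in Stress tumours, and a log2 fold change of 0.24 (SE 0.079).

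Membrane and secreted proteins were also among the genes of higher level. Tspan7, a tetraspanin, stood at 7.39, 9.47 and 6.04 CPM in XCHT-H tumours, against 4.72, 3.67 and 4.07 CPM in Stress tumours, a log2 fold change of 0.88 (SE 0.22). Prg4, the joint lubricant lubricin, had the largest log2 fold change of the 15, 1.96 (SE 0.56), at low levels of 4.22, 3.41 and 0.988 CPM in XCHT-H tumours against 0.816, 0.874 and 0.516 CPM in Stress tumours, and XCHT-H replicate 3 was close to the Stress libraries. Tspan32, a tetraspanin of blood cells, was at 0.53 (SE 0.19), and Cd300lb, an activating receptor of myeloid cells, at 0.69 (SE 0.26). Abcg4, a cholesterol transporter, was at 0.71 (SE 0.25), and the vesicle protein gene Vamp5 at 0.46 (SE 0.14). Rcn2, a calcium-binding protein of the endoplasmic reticulum, was at 0.23 (SE 0.080), and Tubb2b, a beta-tubulin, at 0.34 (SE 0.12).

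Dlx3, a homeobox factor of surface epithelium, stood at 44.9, 56.97 and 44.7 CPM in XCHT-H tumours, against 34.7, 42.2 and 34.9 CPM in Stress tumours, and its log2 fold change was 0.39 (SE 0.13). The Ctrl libraries had 55.9, 62.6 and 53.1 CPM of Dlx3, with Stress minus Ctrl at -0.62 (SE 0.13) on the same Stress libraries. AA414768 had the smallest unadjusted p of the 15 genes of higher level, at 12.3, 13.8 and 9.41 CPM in XCHT-H tumours against 7.41, 7.40 and 6.82 CPM in Stress tumours and a log2 fold change of 0.71 (SE 0.17). Its XCHT-L libraries were at 12.4, 9.43 and 9.03 CPM and its Ctrl libraries at 11.1, 10.9 and 11.3 CPM, all above the Stress libraries. The choice of AA414768 by the rule also favoured low Stress values.

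The genes of lower level in XCHT-H, apart from Tfrc, included regulators of RNA. Pan2, a subunit of a deadenylase that shortens poly(A) tails, stood at 55.2, 54.9 and 62.2 CPM in XCHT-H tumours, against 72.4, 66.2 and 79.8 CPM in Stress tumours, a log2 fold change of -0.34 (SE 0.11). Tnrc6a, a scaffold of microRNA silencing, had 141, 131 and 151 CPM in XCHT-H tumours against 175, 166 and 169 CPM in Stress tumours and a log2 fold change of -0.27 (SE 0.098). Zcchc4, which methylates ribosomal RNA, was at -0.28 (SE 0.089), the RNA-binding protein gene Mex3b at -0.44 (SE 0.16), or -0.29 without Stress replicate 3, and Bclaf1, a factor of transcription and splicing, at -0.30 (SE 0.099). These differences were small, and for each the 3 XCHT-H libraries lay below the 3 Stress libraries by the choice of genes.

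The remaining genes of lower level had varied roles. Ap1g1, a subunit of the clathrin adaptor AP-1, stood at 146, 142 and 183 CPM in XCHT-H tumours, against 197, 188 and 214 CPM in Stress tumours, a log2 fold change of -0.35 (SE 0.10). Ank2, a membrane scaffold, was at -0.55 (SE 0.20), or -0.30 without Stress replicate 3, and the syntrophin gene Sntb2 at -0.56 (SE 0.19), or -0.37 without XCHT-H replicate 2. Neil3, a DNA glycosylase, was at -0.40 (SE 0.15), or -0.26 without XCHT-H replicate 1, and Tti2, a cochaperone of the kinases of DNA damage signalling, at -0.36 (SE 0.12). Psrc1, a microtubule protein of the mitotic spindle, had 4.89, 4.64 and 4.53 CPM in XCHT-H tumours against 9.39, 4.90 and 9.85 CPM in Stress tumours, where Stress replicate 2 stood just above the XCHT-H libraries, and its log2 fold change was -0.78 (SE 0.25). Cbr4, a mitochondrial reductase, was at -0.53 (SE 0.18) and Spata33 at -0.69 (SE 0.26).

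Tmem254c (Entrez ID 100039192, chromosome 14, 26063751 to 26067425) had the largest negative log2 fold change of these genes, -3.77 (SE 1.09). It stood at 0.222, 0.176 and 0.290 CPM in XCHT-H tumours, against 8.63, 0.583 and 0.458 CPM in Stress tumours, so Stress replicate 1 carried the difference, and the value was -1.16 without it. The XCHT-L libraries had 5.00, 2.18 and 5.60 CPM and the Ctrl libraries 3.51, 4.47 and 5.83 CPM. The gene has near-identical copies, between which the counting could have split reads, so its level is uncertain.

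**Figure D4:**
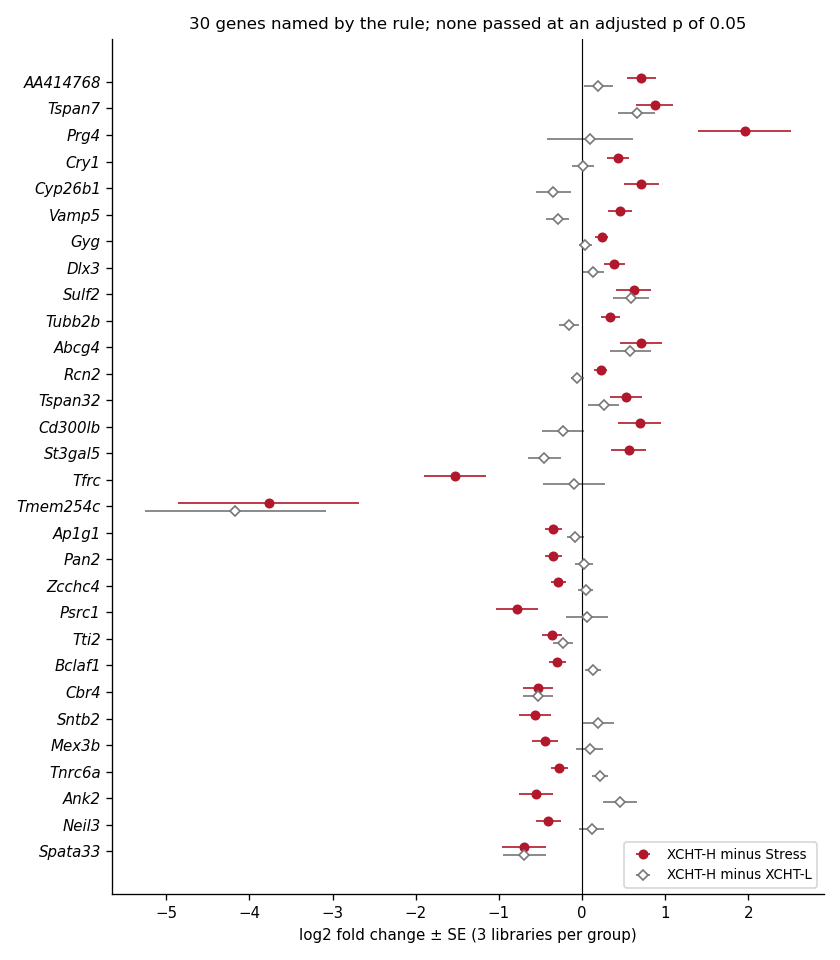
Log2 fold change with its SE of the 30 genes taken by rule, for XCHT-H minus Stress (filled circles) and XCHT-H minus XCHT-L (open diamonds), from 3 libraries per group. The filled circles run from -3.77 for Tmem254c to 1.96 for Prg4, and most open diamonds lie closer to 0. The genes were chosen by the comparison with Stress, so values closer to 0 in the other are partly built in. Both comparisons use the XCHT-H libraries.

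To ask where the high dose differed from the low dose, the 3 XCHT-H libraries were also compared with the 3 XCHT-L libraries. Again 0 of 13453 genes (0%) passed edgeR's test, with a smallest adjusted p of 0.549. At an unadjusted p under 0.05 stood 860 genes (6.39%), 370 higher (2.75%) and 490 lower (3.64%) in XCHT-H. The groups did not overlap for 988 genes (7.34%), also a smaller share than random order would give. Without XCHT-L replicate 1, which leaves 2 libraries of that group, edgeR called 99 genes, with a smallest adjusted p of 0.0435. Across genes, the correlation with transcript length was 0.0810, -0.482 and -0.162 in the XCHT-L libraries. With length and GC trends removed from all 12 libraries 0 genes passed, the same as without that correction. The 99 genes were not retested with it.

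DESeq2 called 5 genes between the doses, which are named for that reason after their values were seen. Tlr12, an endosomal receptor of dendritic cells for microbial profilin, stood at 1.72, 2.94 and 1.86 CPM in XCHT-H tumours, against 0.562, 0.345 and 0.421 CPM in XCHT-L tumours, with edgeR's log2 fold change at 2.27 (SE 0.38). Dnase1l3, a secreted nuclease of dendritic cells and macrophages, had 2.50, 3.76 and 1.63 CPM in XCHT-H tumours, against 0.562, 0.0575 and 0.241 CPM in XCHT-L tumours, a value of 3.16 (SE 0.55). Notch3, a receptor of mural cells of vessels, had 14.8, 11.5 and 12.2 CPM in XCHT-H tumours, against 8.26, 6.50 and 5.18 CPM in XCHT-L tumours, a value of 0.95 (SE 0.18). For these 3 genes the XCHT-L libraries lay below all other libraries of the study.

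Relative to stress alone, those 3 genes were at -0.25 (SE 0.34), -0.39 (SE 0.45) and -0.12 (SE 0.17) in XCHT-H tumours, with overlapping groups. The Stress libraries had 3.73, 2.21 and 1.83 CPM of Tlr12, 4.72, 3.32 and 2.29 CPM of Dnase1l3 and 15.3, 13.4 and 13.1 CPM of Notch3. Gm20594 went the other way, at 9.78, 6.82 and 8.19 CPM in XCHT-H tumours, against 16.1, 20.01 and 18.8 CPM in XCHT-L tumours (-1.14, SE 0.21), and had 7.29, 8.68 and 11.2 CPM in Stress tumours. Tmem254c, described above, was the fifth, at -4.17 (SE 1.09). DESeq2's adjusted p ran from 0.000202 for Dnase1l3 to 0.00695 for Tmem254c.

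Of the 30 genes taken by rule from the comparison with stress, Sulf2, Tspan7 (0.66, SE 0.22), Abcg4 (0.58, SE 0.25), Cbr4 (-0.53, SE 0.18) and Spata33 (-0.69, SE 0.26) had values between the doses close to those against stress; both comparisons use the same XCHT-H libraries. Others lay near 0 between the doses, among them Cry1 (0.013, SE 0.13), Gyg (0.041, SE 0.079) and Tfrc (-0.099, SE 0.37). Still others had the opposite sign between the doses, among them St3gal5 (-0.45, SE 0.20), Cyp26b1 (-0.34, SE 0.21), Vamp5 (-0.29, SE 0.14), Ank2 (0.46, SE 0.20) and Tnrc6a (0.22, SE 0.098). None of these values passed, and a value near 0 with its SE does not show that the doses act alike.

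Lists of genes for pathways and cell types were described by their counts and medians, beside a median of -0.00378 over all genes tested. Of 65 lists with at least 3 members tested, 44 had a median above 0 and 21 below, and 0 held a gene that passed. The sign of the median turned for 11 lists with a muscle score as covariate. That score was each library's mean log2 level of the skeletal muscle list, which was itself among the 11. The sign also turned for 1 list with relative log expression factors and for 3 lists with length and GC trends removed. With relative log expression factors this was the BCL2 family, at 0.0018 against -0.0044 with TMM factors. With length and GC trends removed the respiratory chain median was -0.0094, that of the epithelial-mesenchymal transition list -0.016 and that of the interleukin-6 and STAT3 list -0.0014, against 0.029, 0.030 and 0.0078 without that correction. The sign of the median held without each of the 6 libraries in turn for 17 lists.

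Heat shock chaperones refold damaged proteins. All 20 tested members had a higher mean in XCHT-H, 0 passed, and the median was 0.31, or 0.10 without XCHT-H replicate 2, the library rich in muscle transcripts, and 0.22 with a muscle score as covariate. Hsph1, a chaperone of the HSP110 family, stood at 305, 512 and 272 CPM in XCHT-H tumours, against 286, 283 and 184 CPM in Stress tumours, a log2 fold change of 0.53 (SE 0.27), or 0.20 without XCHT-H replicate 2. Hspa1a, the inducible HSP70, was at 1.15 (SE 0.66), the small heat shock protein gene Hspb1 at 1.80 (SE 0.81), and the HSP40 genes Dnajb1 at 0.28 (SE 0.25) and Dnaja4 at 0.54 (SE 0.26). Ahsa1, the activator of HSP90, had 134, 196 and 152 CPM in XCHT-H tumours against 141, 117 and 125 CPM in Stress tumours and a log2 fold change of 0.33 (SE 0.15). In each of these the groups overlapped. Without XCHT-H replicate 2, Hspb1 was at 0.38, Hspa1a at 0.54, Dnajb1 at 0.10, Dnaja4 at 0.31 and Ahsa1 at 0.16, and without Stress replicate 2 Hspa1a was at 2.26.

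**Figure D5:**
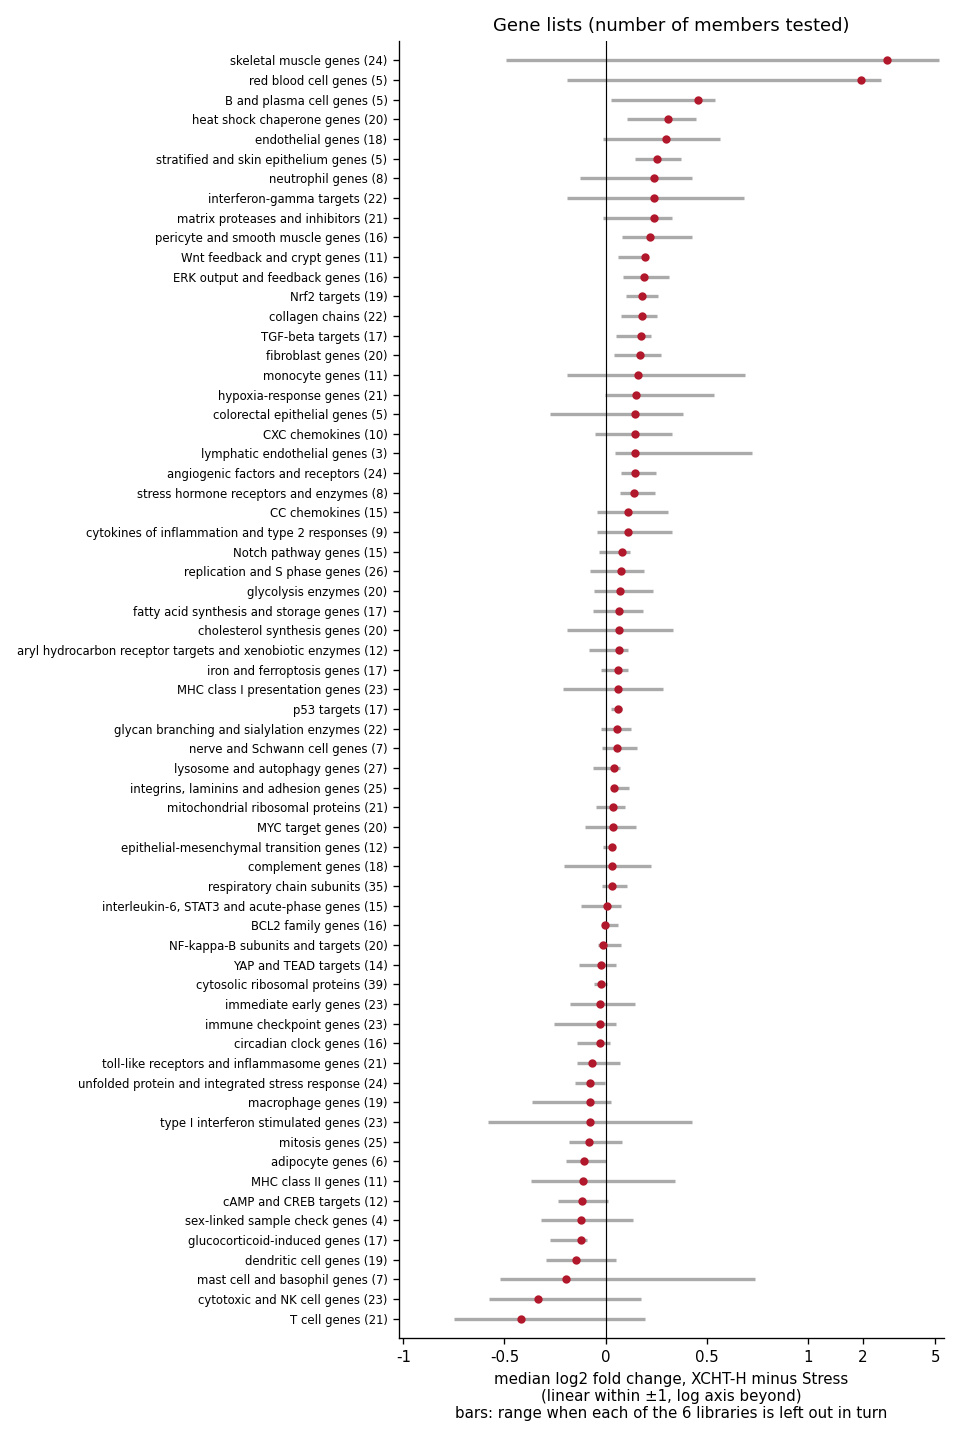
Median log2 fold change, XCHT-H minus Stress, of 65 gene lists (points; number of tested members in brackets) with the range of the median when each of the 6 libraries is left out in turn (bars); the axis is linear within 1 of 0 and logarithmic beyond. Skeletal muscle and red blood cell genes lie farthest to the right with bars that cross 0, and T cell genes lie farthest to the left, also with a bar that crosses 0.

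Hypoxia-response genes, which HIF transcription factors switch on, were higher in 19 of 21 tested members, with 0 passing and a median of 0.15. Leaving out Stress replicate 3 gave a median of -0.0054, leaving out Stress replicate 2 gave 0.53, and a muscle score as covariate gave 0.089. Vegfa, the main growth factor of blood vessels, stood at 279, 335 and 306 CPM in XCHT-H tumours, against 195, 428 and 181 CPM in Stress tumours, a log2 fold change of 0.19 (SE 0.31). Stress replicate 2 was above and the other two Stress libraries were below all XCHT-H libraries. Ankrd37 was the member without overlap, at 8.67, 9.05 and 13.2 CPM in XCHT-H tumours against 5.54, 8.10 and 5.38 CPM in Stress tumours (0.70, SE 0.41). Over all genes tested, 2.43% were higher in XCHT-H without overlap. Egln3, the oxygen-sensing hydroxylase that marks HIF for decay, was at 0.66 (SE 0.51), the carbonic anhydrase gene Car9 at 0.19 (SE 0.57), Ndrg1 at 0.064 (SE 0.34) and the lipid droplet gene Plin2 at 0.23 (SE 0.20). Without Stress replicate 3, Egln3 was at 0.42 and Plin2 at 0.069.

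Vessel and stromal lists had positive medians. Of 18 endothelial genes, 17 were higher in XCHT-H, 0 passed, and the median of 0.30 was -0.011 without Stress replicate 2 and 0.18 with a muscle score as covariate. Kdr, the receptor for VEGF, stood at 19.9, 20.6 and 18.3 CPM in XCHT-H tumours, against 14.1, 9.50 and 22.8 CPM in Stress tumours, and the Stress libraries spread wider than the difference (0.34, SE 0.44). The junction genes Pecam1 and Cdh5 were at 0.18 (SE 0.29) and 0.10 (SE 0.30), the TGF-beta coreceptor gene Eng at 0.31 (SE 0.24), Emcn at 0.43 (SE 0.33) and von Willebrand factor at 0.49 (SE 0.38) for Vwf. Without Stress replicate 2, Kdr was at 0.086 and Emcn at 0.18, and without XCHT-H replicate 2 Eng was at 0.094 and Vwf at 0.20. Pericyte and smooth muscle genes were higher in 15 of 16 members, with a median of 0.22 and a range of 0.082 to 0.43 without single libraries, and 0.13 with the muscle covariate.

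Fibroblast genes were higher in 17 of 20 members, with 0 passing and a median of 0.17, or 0.040 without XCHT-H replicate 1. The defining markers lay within 1 SE of 0 and overlapped: Pdgfra was at -0.094 (SE 0.40), the collagen gene Col1a1 at 0.21 (SE 0.49) and the proteoglycan gene Dcn at -0.020 (SE 0.65). Dcn stood at 683, 81.8 and 419 CPM in XCHT-H tumours, against 290.4, 553 and 356 CPM in Stress tumours, and XCHT-H replicate 2 was the lowest library. The larger values of the list, Postn at 0.75 (SE 0.43), Mfap5 at 1.26 (SE 0.75) and Cthrc1 at 1.79 (SE 0.89), were highest in XCHT-H replicate 2, and without it they were 0.33, 0.37 and 0.63. Collagen chains were higher in 16 of 22 members, with a median of 0.18, or 0.076 without XCHT-H replicate 1.

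T cell genes had the lowest median among lists with at least 3 tested members, -0.42, with 16 of 21 members lower in XCHT-H and 0 passing. Stress replicate 1 carried this: the median was 0.20 without it. Cd8a, the coreceptor of cytotoxic T cells, stood at 18.3, 11.3 and 9.88 CPM in XCHT-H tumours, against 31.6, 15.6 and 8.59 CPM in Stress tumours, with a log2 fold change of -0.50 (SE 0.45). Cd4 was at -0.89 (SE 0.45), Cd3e, a chain of the T cell receptor complex, at -0.34 (SE 0.48), Cd8b1 at -0.82 (SE 0.57) and Cd5 at -0.71 (SE 0.51). Without Stress replicate 1, Cd8a was at 0.12, Cd4 at -0.51, Cd3e at 0.34, Cd8b1 at -0.049 and Cd5 at -0.035. Foxp3, the factor of regulatory T cells, was the member without overlap, where 3.32% of all genes tested were lower without overlap. It stood at 0.944, 0.647 and 0.697 CPM in XCHT-H tumours against 1.69, 1.17 and 1.26 CPM in Stress tumours (-0.84, SE 0.49), levels close to 1 CPM. For cytotoxic lymphocytes and natural killer cells, 18 of 23 genes had lower means, and their median of -0.34 was 0.17 without Stress replicate 1.

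The largest medians belonged to skeletal muscle and red blood cell genes. Skeletal muscle genes were higher in 23 of 24 tested members with a median of 2.73, which was -0.49 without XCHT-H replicate 2. The median was -0.045 with a muscle score as covariate, but that score is made from these same genes, so this value is built in. Acta1, skeletal muscle actin, had 0.722, 125 and 3.25 CPM in XCHT-H tumours, against 8.22, 0.117 and 0.172 CPM in Stress tumours. Among other members, Tnni2 was at 2.61 (SE 1.25), or 0.27 without XCHT-H replicate 2. Ckm was at 0, 36.9 and 0.232 CPM in XCHT-H tumours against 1.46, 0.0583 and 0 CPM in Stress tumours, and Myh4 at 0, 43.8 and 1.05 CPM in XCHT-H tumours against 1.87, 0 and 0 CPM in Stress tumours. Pvalb was at 0, 17.6 and 0 CPM in XCHT-H tumours, against 0.175, 0 and 0 CPM in Stress tumours, and Ampd1 at 0, 2.47 and 0.0581 CPM in XCHT-H tumours against 0.117, 0 and 0.0573 CPM in Stress tumours. In all of them XCHT-H replicate 2 was the highest of the 6 libraries.

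Red blood cell genes were higher in 5 of 5 tested members with a median of 1.96, which was -0.19 without XCHT-H replicate 1. Hba-a1 had 54.7, 10.3 and 2.32 CPM in XCHT-H tumours, against 8.22, 3.09 and 4.64 CPM in Stress tumours (2.08, SE 0.85), and Hbb-bs had 118, 21.6 and 3.78 CPM in XCHT-H tumours against 18.4, 6.53 and 9.68 CPM in Stress tumours (2.05, SE 0.95). Without XCHT-H replicate 1, Hba-a1 was at 0.25 and Hbb-bs at 0.14. Their near-identical copies Hba-a2 (1.96, SE 1.04) and Hbb-bt (1.43, SE 0.87) may share reads with them, so the split between copies is uncertain. Bpgm, an enzyme of red cells that other cells also express, was at 0.039 (SE 0.23).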

How the data were processed

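Messenger RNA of tumour tissue was sequenced in 12 stranded paired-end libraries made from total RNA with an integrity number above 7, per the labels' protocols. The submitters' processing notes name cutadapt 1.9, HISAT2 2.0.4, StringTie 1.3.4d, DESeq2, edgeR and the build GRCm38.p6. The annotation and counting options are not given in the sources used here. The authors deposited estimated counts per gene without further scaling, of which 11.7% to 12.5% were not whole; they were rounded to whole numbers. The deposited FPKM values, which the authors scaled for both transcript length and depth, served to name genes and check markers, and the deposited TPM values to check units.

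Of 17875 genes in the tables, 13453 passed filterByExpr at a minimum count of 10. One model of all 12 libraries in 4 groups was fitted with edgeR 4.0.16 (TMM, robust quasi-likelihood, 2-sided tests, 8 residual degrees of freedom) in R 4.3.3. The p-values were adjusted by Benjamini-Hochberg over the 13453 genes, and genes under 0.05 counted as passing. Changes are log2 fold changes of the fit with their SE, and libraries were scaled by TMM for the CPM. Alternatives were DESeq2 1.42.0, limma-voom (limma 3.58.1), RLE in place of TMM, a minimum count of 50 or none, a fit without the other 6 libraries, a block for the replicate number, a skeletal muscle score as covariate, offsets for length and GC content, and each library left out. Positions come from RefSeq on the same build. Named genes were up to 15 per direction that had no overlap, a proper symbol and, in whichever group was higher, a mean FPKM of 1 or more, filled by the smallest unadjusted p because none passed, plus, for each list described, its defining members and the 3 others with the smallest unadjusted p. Other genes are named as chosen after their values were seen. The 66 lists held 1292 entries, and 35 were not found in the tables. The comparison, its genes and the lists were chosen with earlier results of these data known. The fit was tested on simulated data, where it called 10 unaltered genes. The simulation tested 13353 genes, altered ones included. Libraries of a group differed by far more than counting noise, with dispersion indices (chi-square per gene) of 18.6 to 49.3 in XCHT-H and 19.0 to 33.3 in Stress.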

Additional observations from a re-analysis of the deposited data

How the results depend on the processing

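The call of 0 genes for XCHT-H against Stress held under all 15 alternatives, and none of 1501 alternative values of the named genes passed. The count at an unadjusted p under 0.05 was 366 by limma-voom and ran from 101 without XCHT-H replicate 2 to 422 without Stress replicate 2. For XCHT-H against XCHT-L, DESeq2 called 5 genes, and with single libraries left out edgeR called 0 to 99 (99 without XCHT-L replicate 1). The unadjusted count there was 308 with only the 6 libraries compared and ran from 463 without XCHT-L replicate 2 to 3026 without XCHT-L replicate 1. The cause was not tested.

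Same-numbered XCHT-H and Stress libraries had correlations of deviations of -0.127, -0.182 and 0.0481. Differently numbered libraries were not set beside them, so these values do not settle whether the replicate numbers pair the libraries. With the replicate number as a block, 0 genes passed in either comparison, with 175 genes at an unadjusted p under 0.05 against Stress and 807 against XCHT-L.

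Signs turned for 50 values. With single libraries left out, the log2 fold change of Slc7a11 ran from -0.28 to 0.15, Gpx4 from -0.022 to 0.20, Slc40a1 from -0.064 to 2.22, Per2 from -0.12 to 0.085, Dbp from -0.45 to 0.13, Fkbp5 from -0.29 to 0.027, Tsc22d3 from -0.24 to 0.028, Vegfa from -0.012 to 0.70 and Car9 from -0.031 to 0.53. Ndrg1 ran from -0.15 to 0.54, Pecam1 from -0.0071 to 0.39, Cdh5 from -0.071 to 0.40, Pdgfra from -0.42 to 0.23, Col1a1 from -0.13 to 0.58, Dcn from -0.68 to 0.46, Cd3e from -0.69 to 0.34, Cd8a from -0.83 to 0.12 and Acta1 from -0.52 to 8.14. Ckm ran from -2.07 to 8.42, Myh4 from -0.26 to 11.01, Pvalb from -3.17 to 9.66, Ampd1 from -0.87 to 4.55, Hba-a2 from -0.33 to 2.53, Hbb-bt from -0.83 to 1.97, Bpgm from -0.19 to 0.19, Tlr12 from -0.53 to 0.10 and Gm20594 from -0.27 to 0.061.
With limma-voom, the log2 fold change was 0.077 for Per2, 0.030 for Dbp, 0.00303 for Tsc22d3, -0.094 for Col1a1, 0.0055 for Dcn, -0.00283 for Ckm, -0.24 for Hba-a2, -0.097 for Hbb-bt and 0.0092 for Gm20594. With a muscle score as covariate, the log2 fold change was 0.15 for Per2, 0.00374 for Tsc22d3, 0.044 for Pdgfra, 0.14 for Dcn and -0.27 for Ckm. Ckm is itself part of that score.
The length and GC correction was chosen after the data were seen. With 1 library left out, a group had 2 libraries and the spread was pooled. Low levels, as of Prg4, Slc40a1 and Foxp3, limit what 3 libraries per group can show.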

Other observations

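The genes in this paragraph were chosen after their values were seen. C7, a terminal component of complement, stood at 2.83, 1.06 and 0.407 CPM in XCHT-H tumours, against 0.233, 0.0583 and 0.286 CPM in Stress tumours, without overlap, and its log2 fold change was 2.85 (SE 0.72), or 1.88 without XCHT-H replicate 1. The XCHT-L libraries had 0.674, 0.632 and 0.482 CPM of C7 and the Ctrl libraries 0.0586, 0.116 and 0.240 CPM. The order of the XCHT-H libraries in C7 was that of their globin sums, and the part of blood was not tested. Jchain, which joins the subunits of secreted IgA and IgM, had 11.3, 5.23 and 0.174 CPM in XCHT-H tumours, against 1.92, 0 and 0.115 CPM in Stress tumours, and XCHT-H replicates 1 and 2 were the highest of the 6 libraries. Chil3, a chitinase-like protein of alternatively activated macrophages in mice, had 4.94, 10.5 and 1.22 CPM in XCHT-H tumours, against 1.87, 0.874 and 0.745 CPM in Stress tumours, and reached 84.2 CPM in XCHT-L replicate 3. Il33, an alarmin cytokine, had 4.61, 3.65 and 0.581 CPM in XCHT-H tumours, against 2.16, 0.175 and 1.37 CPM in Stress tumours, with overlapping groups. Without XCHT-H replicate 2, Chil3 was at 1.41 on the log2 scale, against 2.25 with it, and without Stress replicate 2, Il33 was at 0.74, against 1.25. None of these 4 genes passed edgeR's test.

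Genes of the cell cycle had values of opposite sign in XCHT-H tumours. Replication and S phase genes were higher than in Stress tumours in 24 of 26 members, with a median log2 fold change of 0.077, and mitosis genes were lower in 21 of 25, with a median of -0.080. Both medians changed sign without 1 of the 6 libraries, with ranges of -0.075 to 0.19 and -0.18 to 0.083. Interferon-gamma targets were higher in 21 of 22 members with a median of 0.24, which ran from -0.19 without XCHT-H replicate 2 to 0.68. Genes induced by type I interferon had a median of -0.077 and a range of -0.58 to 0.43. Output genes of the ERK pathway were higher in 14 of 16 members with a median of 0.19, 0.088 to 0.31 without single libraries. With a muscle score as covariate, the medians were 0.00070 for interferon-gamma targets, -0.28 for type I interferon genes, -0.050 for replication genes, -0.16 for mitosis genes and 0.077 for ERK output genes. No member of these lists passed.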
